A study of Homo sapiens with 24 samples.

Results

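The BCL2 family decides whether mitochondria commit a cell to apoptosis, and 10 of its genes were followed across THP-1 and MOLM-13 leukemia cells under 4 treatments. The members were the rows of the count table with the gene names BCL2, BCL2L1, MCL1, BCL2A1, BAK1, BCL2L11, BID, BAD, BMF and BIK, 10 of 58735 genes listed. Each name matched 1 row. The rule used gene names alone, but the members were chosen with earlier results of these data known. THP-1 and MOLM-13 are established human acute myeloid leukemia lines, and the MLL-AF9 fusion (KMT2A-MLLT3) was present in every group. The groups were L-ascorbic acid (LAA, vitamin C) at 250 µM in PBS, olaparib (Olap, which blocks the DNA repair enzyme PARP) at 1 µM in DMSO, both together (LAA+Olap), and the PBS and DMSO vehicle, each for 72 h. Every line and treatment had 3 libraries of polyA-selected RNA, 24 in all. The question was how each treatment changed the genes of the family relative to vehicle.

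Proteins of the family fall into 3 roles. Anti-apoptotic members (BCL2, BCL-XL from BCL2L1, MCL1, and BFL1 from BCL2A1) hold the other members in check at the mitochondrial outer membrane. Effectors (BAK from BAK1, and BAX) form the pores that release cytochrome c, and BH3-only members (BIM from BCL2L11, BID, BAD, BMF, BIK) sense stress and either block the protective members or activate the effectors. Myeloid leukemia cells are known to depend on BCL2 and MCL1, and inhibitors of BCL2 are used against the disease. Much of the family's control acts on protein, which messenger RNA does not show.

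Total counts per library lay between 18666259 and 25265870. Mitochondrially encoded genes took 6.63 to 11% of counts, with the highest share in Olap replicate 3 of MOLM-13. The share was higher with LAA+Olap, without overlap, at 7.77 to 9.47% against 6.81 to 7.49% with vehicle in THP-1 and at 8.73 to 9.31% against 6.67 to 6.74% with vehicle in MOLM-13. In MOLM-13 it was also above vehicle with LAA (7.01 to 8.14%) and with Olap (8.22 to 11%). In THP-1 the single compounds overlapped vehicle (6.94 to 7.7% with LAA, 6.63 to 7.12% with Olap). Myeloid markers were present as labelled, 11 of 11 above 1 CPM (counts after scaling for library size) in either line. Erythroid and megakaryocyte markers were above 1 CPM in 0 of 6, with HBB, PF4 and PPBP at 0 counts in all libraries. T and NK markers were above 1 CPM in 2 of 6 (NKG7 and GNLY), B cell markers in 3 of 5 (CD79B and PAX5 among them), and epithelial and fibroblast markers in 2 of 7 (KRT8 and COL1A1). The summed levels were 12.6 to 23.5 CPM in THP-1 and 5.95 to 12.1 CPM in MOLM-13 for T and NK, 13 to 21.9 and 14.4 to 19.2 CPM for B cells, and 4.17 to 9.88 and 4.92 to 7.59 CPM for epithelial and fibroblast markers. With LAA+Olap the B cell sum was 18.6 to 21.9 CPM in THP-1, against 13 to 13.8 CPM with vehicle, while in MOLM-13 the T and NK sum was 5.95 to 7.03 CPM, against 9.74 to 12.1 CPM. That B cell sum was 16.7 to 19.1 CPM with LAA alone and 13.1 to 18 CPM with Olap alone. The MOLM-13 T and NK sum was 7.9 to 10.7 and 8.79 to 11.9 CPM with LAA and Olap alone. The myeloid sum was 4530 to 5080 CPM with LAA+Olap and 5120 to 5400 CPM with vehicle in THP-1, and 3710 to 4200 CPM and 4380 to 5140 CPM in MOLM-13. The part of these shifts in the changes given below was not tested. Whether replicates came from separate cultures is not in the labels, and p-values therefore cover only the spread among these libraries, which may be technical. In bulk RNA, fewer cells of a kind and less RNA per cell cannot be told apart.

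The libraries of the 2 lines were close to each other. Across 17089 genes, log2 levels of single libraries correlated with r between 0.968 and 0.984 for the same treatment in the other line (median 0.979, 36 pairs). Within a group, r lay between 0.973 and 0.988 (median 0.985, 24 pairs). Within a line, LAA+Olap against vehicle libraries gave 0.966 to 0.982 (median 0.974, 18 pairs). The mean vehicle profiles of the lines correlated at 0.99, and the lowest r between single THP-1 vehicle libraries was 0.985. Means carry less noise than single libraries, so these values cannot be set against each other. Of the fusion's target genes in the marker list, MEIS1 was below 1 CPM in THP-1, where the other 4 of 5 were above it, and all 5 were above it in MOLM-13. A sum of 15 genes that are nearly silent in THP-1, picked on these data, averaged 5.34 CPM with LAA, 19.2 CPM with Olap and 4.08 CPM with LAA+Olap in MOLM-13, against 31.6 CPM with vehicle. In THP-1 its group means did not exceed 0.361 CPM. The sum was lower than with vehicle in all 9 treated MOLM-13 libraries, Olap included (17.6 to 20 CPM, against 30.8 to 32.6 CPM with vehicle), so none could be left out, and its part in the MOLM-13 results was not tested. Whether the libraries labelled MOLM-13 hold RNA of that line alone was not tested. The lines are named below as their labels give them, so that a result in both lines is a result under both labels, and the tests within THP-1 were fitted without the MOLM-13 libraries.

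With LAA+Olap in THP-1, BCL2 and BMF were lower and BAK1 was higher. Promoter windows of these 3 members are given as sequence, to show what stands around an annotated start. They come from RefSeq (build GRCh38.p14), 250 bases before and 50 after an annotated start on the minus strand, at chr18:63319720-63320019 for BCL2, chr6:33580227-33580526 for BAK1 and chr15:40108830-40109129 for BMF. The annotated start lay 359 bases inside the deposited gene coordinates for BCL2, 17 for BAK1 and 13 for BMF. The BCL2 window thus lay wholly within that gene. Capitals mark matches on either strand to 7 motifs. These were TGATGNAA (bound by C/EBP-ATF pairs such as ATF4 with DDIT3), GTAAACA (FOXO), CACGTG (MYC), the NF-kB motif, the interferon-stimulated response element (ISRE), TGATTNAT (HOX with MEIS or PBX) and GGGCGG (GC box).
BCL2: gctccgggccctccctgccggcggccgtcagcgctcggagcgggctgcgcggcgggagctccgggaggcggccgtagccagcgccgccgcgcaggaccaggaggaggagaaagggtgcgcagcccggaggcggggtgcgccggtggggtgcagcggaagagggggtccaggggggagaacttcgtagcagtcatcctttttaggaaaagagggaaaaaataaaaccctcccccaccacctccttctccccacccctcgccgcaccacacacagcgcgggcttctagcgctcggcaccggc
BAK1: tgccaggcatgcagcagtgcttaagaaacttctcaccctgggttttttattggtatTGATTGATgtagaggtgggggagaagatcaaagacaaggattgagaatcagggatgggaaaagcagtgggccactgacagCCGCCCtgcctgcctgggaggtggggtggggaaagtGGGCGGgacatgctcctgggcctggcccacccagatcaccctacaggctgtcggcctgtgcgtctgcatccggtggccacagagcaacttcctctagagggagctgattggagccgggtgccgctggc
BMF: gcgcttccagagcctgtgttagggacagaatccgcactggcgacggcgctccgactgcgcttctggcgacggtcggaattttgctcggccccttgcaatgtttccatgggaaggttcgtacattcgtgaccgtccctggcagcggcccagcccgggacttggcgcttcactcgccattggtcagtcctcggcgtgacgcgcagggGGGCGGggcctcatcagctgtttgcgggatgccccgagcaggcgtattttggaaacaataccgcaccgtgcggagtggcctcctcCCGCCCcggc

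The BCL2 window held none of the 7 motifs. The BAK1 window held TGATTGAT at position -194 from the start and GC boxes at -114 and -78. In the BMF window shown, 2 GC boxes stood at -45 and 41. The other BMF window, at chr15:40106917-40107216, held none of the 7 motifs. Of 35116 RefSeq windows of the same length, 2.82% held TGATTNAT and 45.0% held GGGCGG. RefSeq windows matched 8 of the 10 members, all but MCL1 and BIK, with 15 windows in all. Of the other motifs, TGATGCAA (position -63) and TTTCTCTTTC, a minus-strand match to the ISRE (-133), stood in the BCL2A1 window, with a minus-strand match to TGATTNAT at -193. The BCL2L11 window held GTAAACA (-223), and 2 of the 5 BID windows held CACGTG. Among all windows 3.62% held TGATGNAA, 3.57% the ISRE, 3.42% GTAAACA, 7.26% CACGTG and 1.4% the NF-kB motif. A match is a description of letters and not a binding site.

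Per gene length, MCL1 was the most abundant member and BCL2A1 the least in either line. FPKM divides the counts by gene length, so genes can be set beside each other. MCL1 stood at 102 ± 1.61 FPKM in THP-1 vehicle libraries and 90.7 ± 0.583 FPKM in those of MOLM-13 (SD, n = 3 each). BIK followed at 71.2 ± 4.38 and 74.4 ± 3.17 FPKM, BAK1 at 34.2 ± 3.65 and 32.8 ± 2.32, and BID at 19.4 ± 1.08 and 19.8 ± 2.7. BAD (12.8 ± 0.859 and 13 ± 1.11 FPKM), BCL2 (9.54 ± 0.499 and 9.37 ± 0.725), BCL2L11 (7.17 ± 0.516 and 7.96 ± 0.649) and BCL2L1 (6.72 ± 0.665 and 5.8 ± 0.514) came next. BMF had 2.12 ± 0.109 FPKM in THP-1 and 1.96 ± 0.0452 FPKM in MOLM-13. The order of the vehicle means was the same in both lines. Single vehicle libraries overlapped between BCL2L11 (6.85 to 7.76 FPKM) and BCL2L1 (5.95 to 7.11 FPKM) in THP-1, and between BCL2 (8.53 to 9.82 FPKM) and BCL2L11 (7.29 to 8.59 FPKM) in MOLM-13, so those neighbours have no firm order. With LAA in MOLM-13, BIK averaged more FPKM than MCL1 (90.9 and 85.3). MCL1 made up 84.2 to 89.2% of the summed FPKM of the 4 anti-apoptotic members in single libraries.

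**Figure D1:**
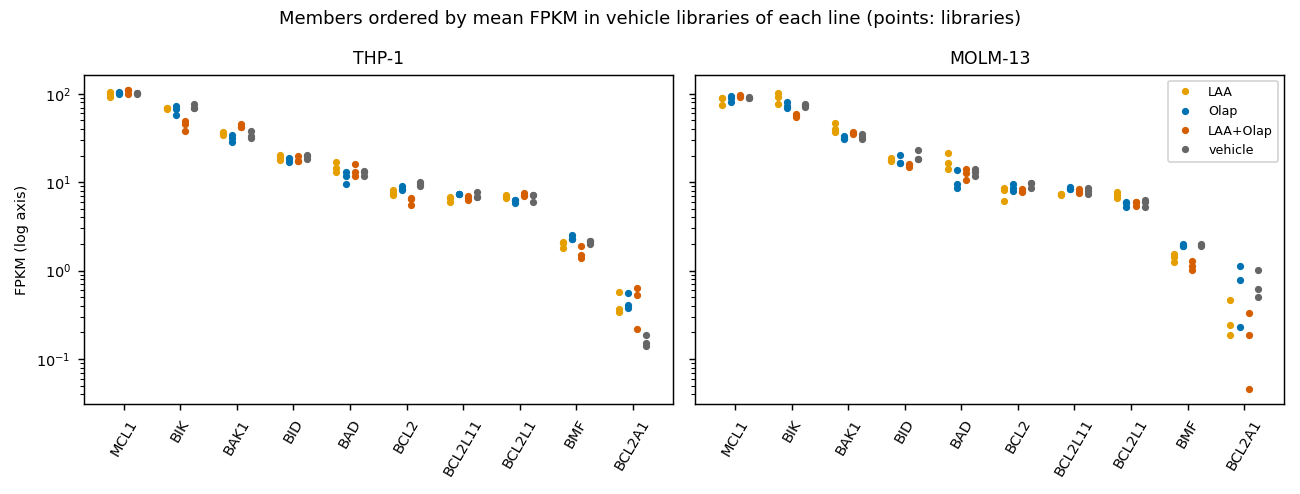
FPKM of the 10 members in THP-1 and MOLM-13 (log axis), with a point for each library and a colour for each treatment, ordered by the vehicle mean. MCL1 leads at 102 FPKM in THP-1 vehicle libraries, and BCL2A1 ends at 0.16 FPKM.

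Against vehicle, LAA+Olap changed 4 of 10 members in THP-1 and 3 of 10 in MOLM-13, LAA alone changed 1 in THP-1, and no member was called with Olap alone. With LAA+Olap in THP-1, BAK1 was higher and BCL2, BIK and BMF were lower, where 27.1% of all genes tested were called, 13.5% as higher and 13.5% as lower. In MOLM-13, BMF, BIK and BID were lower, where 12.2% of all genes were called, 4.85% as higher and 7.35% as lower. The single call with LAA in THP-1 was BCL2, beside 1.49% of all genes. With LAA in MOLM-13 0 members were called, beside 1.88% of genes. With Olap 0 members were called in THP-1, beside 0.269% of genes, and 0 in MOLM-13, beside 0.00619%. Calls are edgeR quasi-likelihood tests with an adjusted p under 0.05 over all genes. Unadjusted p was under 0.05 for 6 members with LAA in MOLM-13, 1 with Olap in THP-1 and 0 with Olap in MOLM-13. DESeq2 called 2 members with LAA in MOLM-13 and 0 with Olap in either line. Over all genes DESeq2 called 577 with LAA in MOLM-13, where edgeR called 303. With so many genes called under LAA+Olap, 4 and 3 of 10 members are read against these shares and are not shown to exceed them. The median log2 fold change of the 10 was -0.02 in THP-1 and -0.13 in MOLM-13, against -0.01 and 0 over all genes.

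**Figure D2:**
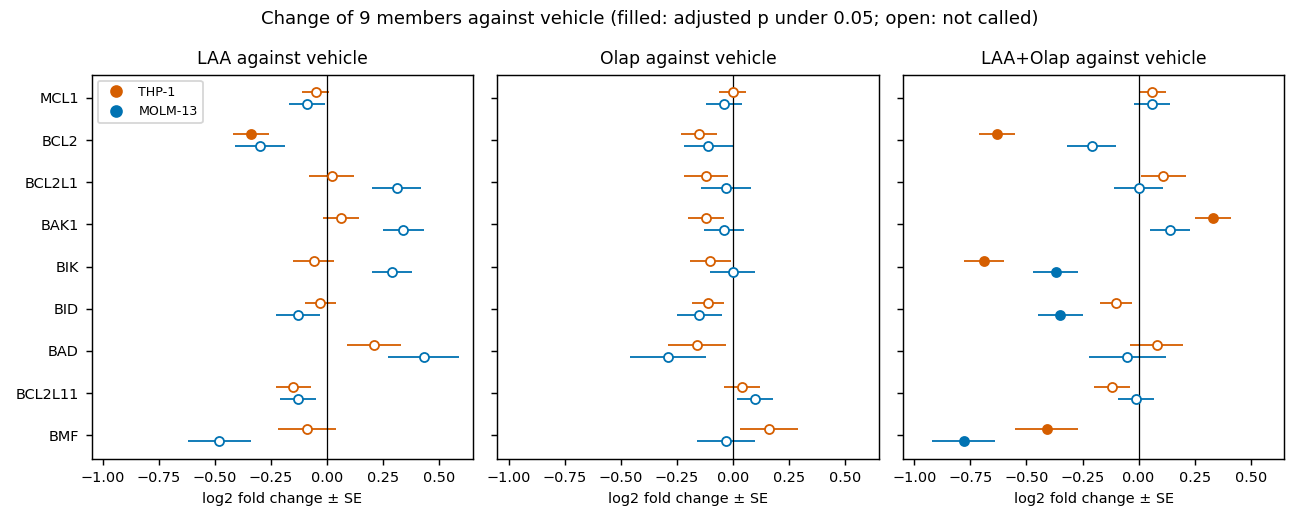
Log2 fold change against vehicle (x axis, with SE bars) of 9 members under LAA, Olap and LAA+Olap, in THP-1 and in MOLM-13. Filled points passed the adjusted test. BCL2 and BIK lie at -0.63 and -0.69 with LAA+Olap in THP-1, and BMF at -0.78 in MOLM-13. BCL2A1 is left out because its counts were at most 27 in any library.

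BCL2, the anti-apoptotic founder of the family (ENSG00000171791, chr18:63123346-63320128, hg38, minus strand), was lower with LAA and lowest with LAA+Olap in THP-1. Its levels there were 95.8, 88.7 and 84.5 CPM with LAA, 96.7, 108 and 100 CPM with Olap, 78.5, 77.1 and 65.4 CPM with LAA+Olap, and 114, 118 and 107 CPM with vehicle. Every LAA+Olap library lay below every LAA library, and every LAA library below every vehicle library, while Olap and vehicle libraries overlapped. The log2 fold change with LAA+Olap was -0.63 ± 0.08 (SE; edgeR adjusted p = 4.45e-07), or 1.54-fold lower. LAA alone gave -0.34 ± 0.08 (edgeR adjusted p = 0.0163). Leaving out vehicle replicate 1 (edgeR adjusted p = 0.0745) or 2 (0.136), or LAA replicate 2 (0.0592) or 3 (0.144), ended that call, as it did in the fit of all 24 libraries and in both FPKM fits. With Olap the value was -0.15 ± 0.08 (edgeR adjusted p = 0.536).

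BCL2 was also lower with LAA+Olap than with each single compound in THP-1. Relative to Olap the log2 fold change was -0.47 ± 0.08 (edgeR adjusted p = 3.91e-05), and relative to LAA -0.29 ± 0.08 (edgeR adjusted p = 0.00747). The call against LAA was lost without LAA replicate 1 or LAA+Olap replicate 3 (edgeR adjusted p = 0.0575 and 0.0603). The interaction, which asks whether the combination departs from the sum of the single effects on the log2 scale, was -0.14 ± 0.11 for BCL2 and was not called (edgeR adjusted p = 0.536).

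In MOLM-13, BCL2 had 95.6, 103 and 72.6 CPM with LAA, 102, 113 and 93.7 CPM with Olap, 93, 100 and 94.2 CPM with LAA+Olap, and 101, 115 and 117 CPM with vehicle. The LAA+Olap libraries lay just below the vehicle libraries, and the other groups overlapped them. No change was called: -0.30 ± 0.11 with LAA (edgeR adjusted p = 0.185) and -0.21 ± 0.11 with LAA+Olap (edgeR adjusted p = 0.214). With the GC and length trend removed the LAA+Olap value was called at -0.28 (edgeR adjusted p = 0.0129). The LAA+Olap effect in THP-1 minus that in MOLM-13 was -0.40 ± 0.14 and did not pass (edgeR adjusted p = 0.121). Without the filter on low counts that difference passed (edgeR adjusted p = 0.0295).

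MCL1, the short-lived protector of myeloid cells, was called in no comparison. Its lowest and highest levels were 405 and 460 CPM with LAA, 441 and 457 CPM with Olap, 440 and 496 CPM with LAA+Olap, and 442 and 455 CPM with vehicle in THP-1. In MOLM-13 the ranges were 332 to 400 CPM with LAA, 352 to 421 CPM with Olap, 404 to 427 CPM with LAA+Olap, and 398 to 402 CPM with vehicle. In MOLM-13 the LAA+Olap libraries lay above the vehicle libraries, but the log2 fold change was 0.06 ± 0.08 (edgeR adjusted p = 0.699). In THP-1 it was 0.06 ± 0.06 (edgeR adjusted p = 0.463).

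BCL2L1, which encodes the protector BCL-XL, was also called in no comparison of the main fits. With LAA in MOLM-13 it had 23.6, 22.3 and 26 CPM, against 17.5, 19.9 and 20.8 CPM with vehicle. All 3 LAA libraries were above the vehicle libraries, but the log2 fold change of 0.31 ± 0.11 did not pass (edgeR adjusted p = 0.16). With LAA+Olap in MOLM-13 BCL2L1 had 19.8, 20.1 and 18.2 CPM, and its log2 fold change against vehicle was 0.00 ± 0.11. Against LAA it was -0.31 ± 0.11 (edgeR adjusted p = 0.057), a value called by DESeq2 (adjusted p = 0.0462), in the fit of all 24 libraries (edgeR adjusted p = 0.0264) and without LAA replicate 2 (edgeR adjusted p = 0.0378). In THP-1 the values against vehicle were 0.02 ± 0.10 with LAA, -0.12 ± 0.10 with Olap and 0.11 ± 0.10 with LAA+Olap.

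BCL2A1, an NF-kB-induced protector of white blood cells, was barely detected, with 1 to 27 counts per library. In THP-1 the counts were 13, 8 and 8 with LAA, 12, 9 and 10 with Olap, 15, 5 and 11 with LAA+Olap, and 4, 3 and 4 with vehicle. In MOLM-13 the counts were 10, 4 and 6 with LAA, 16, 5 and 27 with Olap, 4, 9 and 1 with LAA+Olap, and 25, 14 and 14 with vehicle. Treated THP-1 libraries thus lay above vehicle, and the LAA and LAA+Olap libraries of MOLM-13 lay below it. Against vehicle the log2 fold change with LAA+Olap was 1.49 ± 0.69 in THP-1 (edgeR adjusted p = 0.113) and -1.84 ± 0.68 in MOLM-13 (edgeR adjusted p = 0.0882). Both FPKM fits called the THP-1 change (limma adjusted p = 0.0405 and 0.0273). The difference between the lines, THP-1 minus MOLM-13, was 3.35 ± 0.95 (edgeR adjusted p = 0.0558). It passed with DESeq2 (adjusted p = 0.0242), with both FPKM fits, with the GC and length trend removed and without LAA+Olap replicate 2 of THP-1. Its call thus depended on 1 library and on the tool.

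BAK1, the pore-forming effector (ENSG00000030110, chr6:33572547-33580293, minus strand), was higher with LAA+Olap in THP-1. It had 82.7, 81.4 and 75.5 CPM with LAA, 70.8, 63.4 and 75.6 CPM with Olap, 93.6, 94.2 and 102 CPM with LAA+Olap, and 69.8, 85.3 and 73.7 CPM with vehicle. The 3 LAA+Olap libraries were above all 9 others. The log2 fold change was 0.33 ± 0.08 against vehicle (edgeR adjusted p = 0.00229), or 1.26-fold. Against Olap it was 0.45 ± 0.08 (edgeR adjusted p = 0.000105). Against LAA it was 0.27 ± 0.08 (edgeR adjusted p = 0.0162), a call lost without LAA replicate 3 or LAA+Olap replicate 3 (edgeR adjusted p = 0.0917 and 0.0743).

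In THP-1 the BAK1 interaction was 0.39 ± 0.11 (edgeR adjusted p = 0.0315), with neither single compound called. It was lost in both FPKM fits (limma adjusted p = 0.0718) and without any of vehicle replicates 2 and 3, LAA replicate 3, Olap replicates 1 and 2 and LAA+Olap replicate 3 (edgeR adjusted p up to 0.145). The interaction called 2 of 10 members, BAK1 and BIK, beside 7.57% of all genes.

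In MOLM-13 the highest BAK1 mean was with LAA alone. BAK1 had 89.6, 82.9 and 104 CPM with LAA, 69.2, 73.7 and 70.9 CPM with Olap, 82.6, 80.5 and 78.3 CPM with LAA+Olap, and 68.2, 72.4 and 78.7 CPM with vehicle. All LAA libraries exceeded all vehicle libraries. The log2 fold change of 0.34 ± 0.09 just missed the threshold (edgeR adjusted p = 0.0505). It passed in 4 of 8 alternative fits, among them those without the filter on low counts, of all 24 libraries and with DESeq2 (adjusted p = 0.0122). Of 6 fits that each left out 1 library, only the 1 without LAA replicate 2 called it. In those 6 the log2 fold change went down to 0.24 and the edgeR adjusted p up to 0.194. LAA+Olap gave 0.14 ± 0.09 (edgeR adjusted p = 0.335), or 0.23 with the GC and length trend removed (edgeR adjusted p = 0.0248). THP-1 minus MOLM-13 was -0.27 ± 0.12 for the LAA effect (edgeR adjusted p = 0.715) and 0.20 ± 0.12 for the LAA+Olap effect (edgeR adjusted p = 0.417).

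BIK, a BH3-only protein of the endoplasmic reticulum (ENSG00000100290, chr22:43110748-43129712, plus strand), was lower with LAA+Olap in both lines. In THP-1 it had 66.6, 65.9 and 64.3 CPM with LAA, 65.2, 55.4 and 70.2 CPM with Olap, 36, 44.3 and 47.8 CPM with LAA+Olap, and 66, 65.8 and 73.2 CPM with vehicle. The LAA+Olap libraries were the lowest 3 of the 12. The log2 fold change was -0.69 ± 0.09 (edgeR adjusted p = 2.22e-06), or 1.61-fold lower. It was -0.63 ± 0.09 against LAA (edgeR adjusted p = 1.28e-05) and -0.59 ± 0.09 against Olap (edgeR adjusted p = 2.99e-05).

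The THP-1 interaction of BIK was -0.52 ± 0.13 (edgeR adjusted p = 0.0114), so the combination lowered it by more than the single effects add up to. In the FPKM fits that call was lost (limma adjusted p = 0.0581 and 0.0571). The single compounds gave -0.06 ± 0.09 for LAA and -0.10 ± 0.09 for Olap, neither called.

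In MOLM-13, BIK had 89, 74.3 and 98.5 CPM with LAA, 69.9, 77.7 and 66.4 CPM with Olap, 56, 52.8 and 56.8 CPM with LAA+Olap, and 72.3, 68 and 74.1 CPM with vehicle. Again LAA+Olap libraries lay below all others, and the LAA libraries lay above the vehicle libraries. LAA+Olap gave -0.37 ± 0.10 against vehicle (edgeR adjusted p = 0.0144), a call lost without vehicle replicate 3 or LAA+Olap replicate 2 (edgeR adjusted p = 0.0666 and 0.0849). Against LAA it gave -0.66 ± 0.10 (edgeR adjusted p = 0.000117), the only call among the 10 members in that comparison, beside 14.9% of all genes. Without LAA replicate 2 that comparison called 4 members, with BAK1, BCL2L1 and BAD added, while the genes called over the whole table rose from 2413 to 3168. LAA alone gave 0.29 ± 0.09 (edgeR adjusted p = 0.137), called without LAA replicate 2 (edgeR adjusted p = 0.0228).

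The MOLM-13 interaction of BIK was -0.66 ± 0.13 (edgeR adjusted p = 0.00998), the 1 member called beside 2.04% of all genes. LAA+Olap against Olap gave -0.37 ± 0.10 (edgeR adjusted p = 0.0222). That call was lost with total-count scaling (edgeR adjusted p = 0.0503) and without Olap replicate 1 or 2 or any LAA+Olap library (edgeR adjusted p up to 0.113). The LAA+Olap effect in THP-1 minus that in MOLM-13 was -0.31 ± 0.14 for BIK and was not called (edgeR adjusted p = 0.275). With the GC and length trend removed that difference was called at -0.41 (edgeR adjusted p = 0.0221).

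BMF, a BH3-only protein that binds the cytoskeleton's motor complexes until stress frees it (ENSG00000104081, chr15:40087890-40108892, minus strand), was lower with LAA+Olap in both lines. In MOLM-13 it had 7.72, 8.57 and 6.89 CPM with LAA, 10.3, 10.9 and 10.5 CPM with Olap, 6.21, 5.59 and 7.11 CPM with LAA+Olap, and 10.5, 10.8 and 11 CPM with vehicle. LAA and LAA+Olap libraries lay below all Olap and vehicle libraries, and overlapped each other. The log2 fold change with LAA+Olap was -0.78 ± 0.14 (edgeR adjusted p = 0.000885), or 1.71-fold lower. With LAA it was -0.48 ± 0.14 and not called (edgeR adjusted p = 0.0818), though the fit of all 24 libraries (edgeR adjusted p = 0.0329), DESeq2 (adjusted p = 0.0455) and the fit with the GC and length trend removed called it. LAA+Olap against Olap gave -0.75 ± 0.14 (edgeR adjusted p = 0.00186). BMF and BIK were the 2 of 10 members called in that comparison, beside 7.48% of all genes.

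In THP-1, BMF had 11.1, 9.98 and 11.5 CPM with LAA, 12.5, 13.8 and 12.7 CPM with Olap, 7.68, 8.32 and 10.4 CPM with LAA+Olap, and 10.9, 11.9 and 12 CPM with vehicle. The LAA+Olap libraries were below vehicle and Olap, and 1 of them overlapped the LAA libraries. Against vehicle the log2 fold change was -0.41 ± 0.14 (edgeR adjusted p = 0.0261). Leaving out vehicle replicate 2 or 3 or LAA+Olap replicate 1 or 2 ended that call (edgeR adjusted p = 0.0749 to 0.132). Against Olap it was -0.58 ± 0.14 (edgeR adjusted p = 0.00243), where 4 of 10 members and 24.2% of all genes were called. Against LAA it was -0.32 ± 0.14 (edgeR adjusted p = 0.108), where 3 of 10 members (BCL2, BIK and BAK1) and 20.3% of all genes were called.

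BID, which links death receptors to mitochondria once caspase-8 cuts it (ENSG00000015475, chr22:17734138-17774770, minus strand), was lower with LAA+Olap in MOLM-13. It had 70.1, 67 and 72.5 CPM with LAA+Olap, against 103, 81.4 and 82.3 CPM with vehicle. The groups did not overlap, and vehicle replicate 1 stood well above the other vehicle libraries. The log2 fold change was -0.35 ± 0.10 (edgeR adjusted p = 0.0258), or 1.27-fold lower. Without vehicle replicate 1 it was -0.23 (edgeR adjusted p = 0.17), and the call was also lost without any 1 of the LAA+Olap libraries (edgeR adjusted p = 0.0634 to 0.121) and in the FPKM fits. In THP-1 the value was -0.10 ± 0.07 (edgeR adjusted p = 0.332), and THP-1 minus MOLM-13 was 0.25 ± 0.12 (edgeR adjusted p = 0.321).

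BCL2L11 (BIM, a strong activator of the effectors) and BAD (a binder of BCL2 and BCL-XL held back by phosphorylation) were called in no comparison of the main fits. BCL2L11 group means ran from 43.6 to 49.3 CPM in THP-1 and from 48.9 to 57.4 CPM in MOLM-13, and its log2 fold changes against vehicle from -0.15 to 0.10. BAD had 28.5, 24.5 and 37 CPM with LAA in MOLM-13, against 22.3, 20.3 and 24.2 CPM with vehicle. Its LAA libraries were above vehicle, with a log2 fold change of 0.43 ± 0.16 (edgeR adjusted p = 0.226), which passed without the filter on low counts (edgeR adjusted p = 0.0355). BAD overlaps the protein-coding gene GPR137 on the other strand, whose counts were 44.7 to 67.2% of those of BAD, and BCL2L11 overlaps the noncoding MIR4435-2HG, at 22.7 to 48.7%. The kit does not mark strand, so reads of such partners cannot be told apart. For the other 8 members overlapping genes held at most 4.96% of the member's counts.

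**Figure D3:**
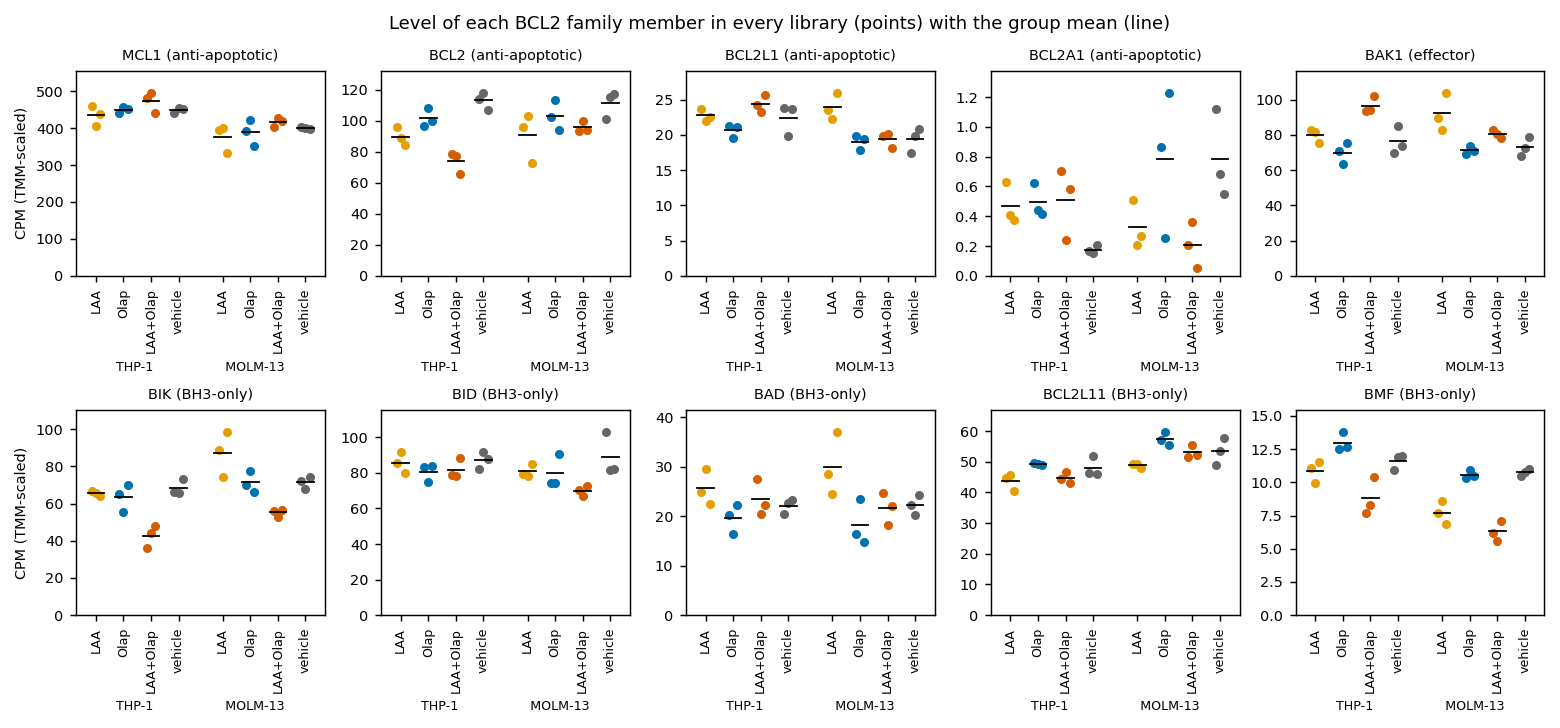
CPM (y axis, from 0, with its own scale in each panel) of each member in all 24 libraries, grouped by treatment within THP-1 and MOLM-13. Points are libraries and lines are means of 3. BIK and BMF are lower with LAA+Olap than with vehicle in either line, and BCL2 falls to a mean of 73.6 CPM with LAA+Olap in THP-1, against 113 CPM with vehicle.

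MOLM-13 LAA replicate 3 had the highest BIK (98.5 CPM), BAK1 (104 CPM) and BAD (37 CPM) and the lowest BCL2 (72.6 CPM) and MCL1 (332 CPM) of its line. Its summed FPKM over all genes was also the highest of the 24, at 389673, and that of Olap replicate 3 of MOLM-13 came next at 380647. The other 22 libraries had 317027 to 360593. Without it the log2 fold change with LAA in MOLM-13 was -0.16 in place of -0.30 for BCL2, 0.25 in place of 0.43 for BAD and 0.19 in place of 0.29 for BIK, none of which was called either way.

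Summed per length, the 5 BH3-only members had lower values with LAA+Olap than with vehicle in both lines, mostly through BIK. The 5 BH3-only members summed to 79.3, 84 and 90.5 FPKM with LAA+Olap, against 108, 112 and 118 FPKM with vehicle in THP-1. In MOLM-13 they summed to 96.9, 90 and 97.3 FPKM, against 120, 111 and 120 FPKM. BIK alone averaged 44.5 FPKM with LAA+Olap and 71.2 FPKM with vehicle in THP-1, and 57.5 and 74.4 FPKM in MOLM-13. BCL2L11 and BAD were not called. The BH3-only gene PMAIP1, which is no member, went the other way, at 29.4 FPKM with LAA+Olap and 15.9 FPKM with vehicle in THP-1, and 20.7 and 13.9 FPKM in MOLM-13. BIK made up most of the member sums, 52.4% with LAA+Olap and 63.1% with vehicle in THP-1 on average, and 60.7% and 63.5% in MOLM-13. The 4 anti-apoptotic members summed to 114 to 126 FPKM with LAA+Olap and 117 to 119 FPKM with vehicle in THP-1. In MOLM-13 these sums were 106 to 112 FPKM and 106 to 107 FPKM, so the groups overlapped in either line. No test was run on these sums.

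**Figure D4:**
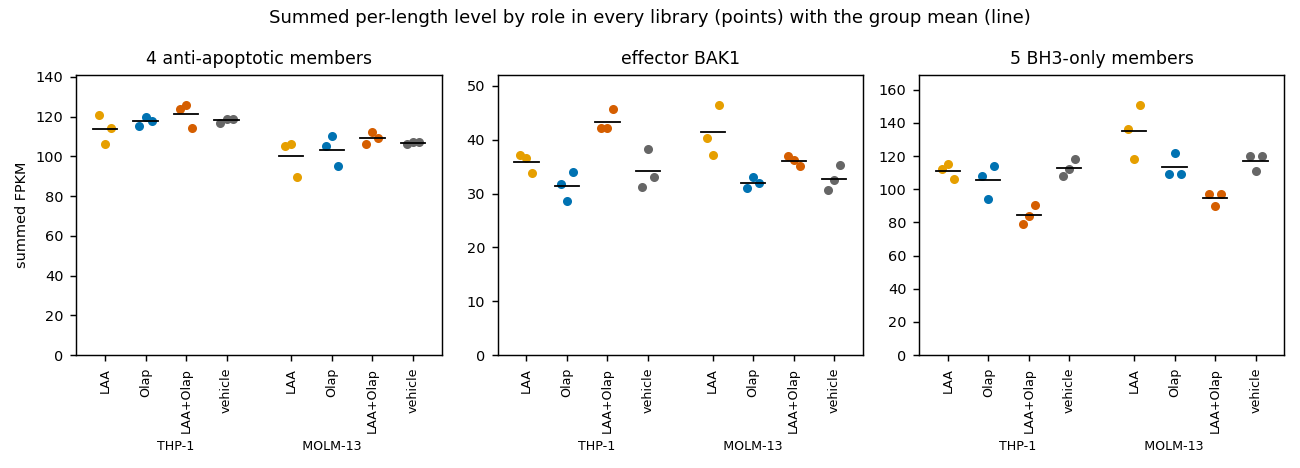
Summed FPKM (y axis, from 0) of the 4 anti-apoptotic members, the effector BAK1 and the 5 BH3-only members in each library, with group means as lines. BH3-only sums with LAA+Olap average 84.6 FPKM in THP-1 and 94.7 FPKM in MOLM-13, against 113 and 117 FPKM with vehicle.

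No member was called between the lines under vehicle. The vehicle libraries of THP-1 against those of MOLM-13 gave 0 of 10 members called, beside 4.48% of all genes (3 members had an unadjusted p under 0.05, and DESeq2 called 1, BCL2A1). BCL2A1 had the largest difference, -2.12 ± 0.67 on the log2 scale (edgeR adjusted p = 0.0688). The difference between the lines in a treatment effect was called for no member either. Between the lines 0 members were called for LAA (beside 0.14% of genes, 5 members at unadjusted p under 0.05), 0 for Olap (0.00585%, 0 members) and 0 for LAA+Olap (2.13%, 3 members). DESeq2 called 0, 0 and 1. Thus BCL2 and BAK1 called in THP-1, and BID called in MOLM-13, were not shown to differ between the lines.

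Of 13 listed relatives of the family 9 were tested, of which LAA+Olap gave 1 higher and 3 lower in THP-1, beside 27.1% of all genes called, and 2 higher and 4 lower in MOLM-13, beside 12.2%. PMAIP1 (NOXA, the BH3-only binder of MCL1) averaged 66.1 ± 0.869 CPM with LAA+Olap and 35.7 ± 2.16 CPM with vehicle in THP-1 (SD, n = 3 each). Its log2 fold change was 0.88 ± 0.09 there (edgeR adjusted p = 2.12e-08) and 0.58 ± 0.10 in MOLM-13 (edgeR adjusted p = 0.000847). BBC3 (PUMA, a BH3-only target of p53) fell by 0.64 in THP-1 (edgeR adjusted p = 0.0013) and by 0.73 in MOLM-13 (edgeR adjusted p = 0.0121), both on the log2 scale.

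BNIP3 and BNIP3L, mitophagy receptors induced by hypoxia-inducible factors, had the smallest adjusted p among the relatives. BNIP3 averaged 42.1 ± 6.56 CPM with LAA+Olap and 116 ± 3.88 CPM with vehicle in THP-1 (log2 fold change -1.46 ± 0.08, edgeR adjusted p = 1.13e-13; SD, n = 3 each). In MOLM-13 it was -1.19 ± 0.10 (edgeR adjusted p = 1.27e-07). BNIP3L changed by -0.94 in THP-1 and -0.83 in MOLM-13. The effector BAX was lower only by the MOLM-13 test, -0.40 ± 0.10 (edgeR adjusted p = 0.0117), against -0.10 ± 0.09 in THP-1 (edgeR adjusted p = 0.438), and the difference between the lines did not pass (0.31 ± 0.14, edgeR adjusted p = 0.286). The effector-like BOK was higher in MOLM-13 with LAA (0.59 ± 0.13, edgeR adjusted p = 0.0254) and with LAA+Olap (0.42 ± 0.13, edgeR adjusted p = 0.0463), and had -0.20 ± 0.18 with LAA+Olap in THP-1. BCL2L2, which encodes the protector BCL-W, had 0.23 ± 0.11 and 0.11 ± 0.15, and HRK was too low to test.

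Downstream of the mitochondria, 4 of 15 apoptosome and caspase genes were higher and 1 lower in THP-1 with LAA+Olap, near the 27.1% of all genes called. CYCS (cytochrome c, 0.39 ± 0.07) and AIFM1 (apoptosis-inducing factor, 0.33 ± 0.07) were higher, and the apoptosome scaffold APAF1 (-0.41 ± 0.07) was lower (edgeR adjusted p = 0.000181, 0.000438 and 5.59e-05). In MOLM-13, AIFM1 was the 1 gene called with LAA+Olap (0.24 ± 0.07, edgeR adjusted p = 0.0414), beside 12.2% of all genes. APAF1 was lower there with LAA (-0.39 ± 0.09, edgeR adjusted p = 0.0251). With LAA+Olap the initiator caspase gene CASP9 had 0.03 ± 0.14 in THP-1 (edgeR adjusted p = 0.892) and -0.18 ± 0.11 in MOLM-13 (edgeR adjusted p = 0.318). XIAP, an inhibitor of caspases, had -0.19 ± 0.10 in THP-1 and -0.02 ± 0.10 in MOLM-13.

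In the death receptor pathway 3 of 10 genes were called in THP-1 with LAA+Olap, beside 27.1% of all genes called in either direction. All 3 were higher, where 13.5% of all genes were called as higher, and no test of the list was run. In MOLM-13 0 were called, beside 12.2% of all genes, with 1 at unadjusted p under 0.05. List genes were read from the edgeR fit alone. CASP8, the caspase that cuts BID, had a log2 fold change of 0.37 ± 0.08 in THP-1 (edgeR adjusted p = 0.00054). RIPK1 had 0.46 ± 0.11 and the TRAIL receptor TNFRSF10B 0.32 ± 0.09 (edgeR adjusted p = 0.00233 and 0.00683). CFLAR, a decoy of CASP8, had -0.18 ± 0.07 in THP-1 (edgeR adjusted p = 0.0699). With LAA alone FAS was lower in MOLM-13 (-1.20 ± 0.26, edgeR adjusted p = 0.0195), at 1.73 ± 0.631 CPM with LAA and 3.95 ± 0.416 CPM with vehicle (SD, n = 3 each).

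Among transcription regulators known to act on the family, DDIT3 (CHOP, a stress factor) was higher with LAA+Olap in both lines. It averaged 43.8 ± 2.53 CPM with LAA+Olap and 10.2 ± 2.23 CPM with vehicle in THP-1, and 22.3 ± 2.07 and 9.23 ± 0.888 CPM in MOLM-13 (SD, n = 3 each). The log2 fold changes were 2.10 ± 0.13 (edgeR adjusted p = 7.75e-13) and 1.27 ± 0.13 (edgeR adjusted p = 1.48e-06), and the line difference of 0.83 ± 0.19 passed (edgeR adjusted p = 0.0123). ATF4, which acts upstream of DDIT3, had 0.52 ± 0.06 in THP-1 (edgeR adjusted p = 7.05e-08) and 0.01 ± 0.08 in MOLM-13 (edgeR adjusted p = 0.951), with a line difference of 0.52 ± 0.10 (edgeR adjusted p = 0.00272). MYC was lower in THP-1 (-0.52 ± 0.06, edgeR adjusted p = 4e-07) and in MOLM-13 (-0.29 ± 0.07, edgeR adjusted p = 0.00858). FOXO3 had -0.19 ± 0.07 in THP-1 (edgeR adjusted p = 0.0602).

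Of 18 regulators tested in THP-1, 2 were higher and 3 lower with LAA+Olap, near the 27.1% of all genes called, and of 19 in MOLM-13, 1 was higher and 5 lower, beside 12.2%. MEIS1 and HOXA9, of the fusion's program, were lower in MOLM-13 with LAA (-3.10 ± 0.41 and -0.35 ± 0.09, edgeR adjusted p = 0.000301 and 0.0498) and with LAA+Olap (-3.49 ± 0.42 and -0.34 ± 0.09, edgeR adjusted p = 1.32e-05 and 0.0159). MEIS1 moved there with the 15-gene sum given above, and the part of that sum was not tested. Of 17 protein partners and turnover factors, 2 were higher (TMBIM6 and the ubiquitin ligase gene MARCHF5) and 2 lower (the 14-3-3 genes YWHAE and YWHAZ, the last named after its value was seen) in THP-1 with LAA+Olap, beside 27.1% of all genes called. In MOLM-13 0 of 17 were called, beside 12.2% of all genes, with 5 at unadjusted p under 0.05. List medians with LAA+Olap lay between -0.10 and 0.18 in THP-1 and between -0.06 and 0 in MOLM-13, beside -0.01 and 0 over all genes. With LAA or Olap in THP-1, and with Olap in MOLM-13, edgeR called 0 genes of these 5 lists, with 0 to 4 genes of a list at unadjusted p under 0.05. Over all genes the shares called there were 1.49%, 0.269% and 0.00619%, so few calls could arise in lists of this size.

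As a description, the patterns most like that of BCL2 over the 12 THP-1 libraries were those of NREP (r = 0.97), PRSS12 (0.96) and HGSNAT (0.96), among 9358 genes. For BMF over the 12 MOLM-13 libraries they were LETMD1 (0.95), TMEM68 (0.95) and DNAJC5B (0.94), among 9338 genes. These points share libraries and treatments.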

How the data were processed

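PolyA-selected RNA of 24 libraries (2 lines, 4 treatments, 3 replicates) was analysed. HISAT2, SAMtools, DESeq2 and build hg38 are named, with no versions, per the submitters' processing notes. How reads were counted, with which strand option and annotation, is not given in the sources used here. Per the labels' protocols, libraries were made with the NEBNext Ultra RNA kit, which does not mark strand. The deposited counts are whole numbers per gene, not normalized. The deposited FPKM values divide the counts by gene length and a library size. Symbols, IDs and hg38 coordinates are those of the deposited tables.

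The 12 libraries of a line were fitted together in edgeR 4.0.16 under R 4.3.3 (filterByExpr, TMM, quasi-likelihood F test), adjusted by Benjamini and Hochberg over all genes, with a threshold of 0.05. Line differences used all 24 libraries, and 16 comparisons were made. The fits were also run on simulated counts with a constant spread, which need not be that of these libraries. That run required recovery only of changes of at least 2-fold, larger than any member change called in the main fits. SE is the log2 fold change divided by the root of F. Alternatives were total-count scaling, no filter on low counts, a replicate block, 1 fit of all libraries, limma 3.58.1 on log2(FPKM + 1) and log2(FPKM + 0.1), DESeq2 1.42.0, leaving out each library, and, chosen after seeing the data, removal of GC and length trends. FPKM fold changes are on the log2(FPKM + pseudocount) scale.

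The members, the pathway lists and the genes nearly silent in THP-1 were chosen with earlier results of these data known. Named genes were all called members, up to 3 called genes per list with the smallest adjusted p, and a fixed set of 15 pathway genes whether called or not, of which 1 is not reported here. For likeness of pattern, they were the 3 protein-coding genes with the highest Pearson r of log2 CPM to the member with the smallest adjusted p. Of the DIABLO rows, the one with more counts was used. Replicate pairs differed by more than sampling noise, with a chi-square per degree of freedom of at least 3.87.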

Additional observations from a re-analysis of the deposited data

Results flagged for a closer look

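For 3 regulators the effect of LAA+Olap against vehicle differed between the lines by the edgeR test of that difference, THP-1 minus MOLM-13 on the log2 scale. The difference was 0.83 ± 0.19 for DDIT3 (SE; edgeR adjusted p = 0.0123) and 0.52 ± 0.10 for ATF4 (edgeR adjusted p = 0.00272), with every LAA+Olap mean of DDIT3 above its vehicle mean. For MEIS1 it was 4.20 ± 1.01 (edgeR adjusted p = 0.0217). MEIS1 averaged 0.312 CPM with LAA+Olap and 3.69 CPM with vehicle in MOLM-13, while in THP-1 its group means lay between 0.0649 and 0.206 CPM, so the difference rests on the MOLM-13 libraries.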

How the results depend on the processing

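No member changed direction while called under any alternative, and member values kept their side of the threshold in 2427 instances, against 33 newly called and 40 no longer called. Most of the 2427 were values that the main fits did not call, so the count does not measure how stable the calls were. The number of members called moved as follows, and the cause was not tested. With total-count scaling, LAA+Olap against Olap in MOLM-13 called 1. Without the filter on low counts, LAA in MOLM-13 called 2, LAA+Olap against LAA in MOLM-13 called 2, and the line difference for LAA+Olap called 1. In 1 fit of all 24 libraries, LAA called 0 in THP-1 and 2 in MOLM-13, and LAA+Olap against LAA in MOLM-13 called 3. With log2(FPKM + 1), LAA in THP-1 and the THP-1 interaction called 0, and the line difference for LAA+Olap called 1. With log2(FPKM + 0.1) these were 0, 0 and 1, and the vehicle libraries of the lines differed in 1. Genes called there were 354 in the line difference for LAA+Olap (from 364) and 692 between vehicle libraries (from 765). Both FPKM fits called 5 members with LAA+Olap in THP-1, BCL2A1 added, and 2 in MOLM-13, BID lost. Over the whole table they called 3948 and 3907 genes in THP-1 (from 4423), and 1672 and 1635 in MOLM-13 (from 1972). DESeq2 called 2 with LAA and 3 for LAA+Olap against LAA in MOLM-13, 1 in the line difference for LAA+Olap and 1 between the vehicle libraries. With GC and length trends removed, chosen after seeing the data, MOLM-13 had 1 with LAA and 5 with LAA+Olap. It had 3 for LAA+Olap against Olap, where BAK1 was added, and the line difference for LAA+Olap had 2. Genes called over the whole table often rose too. With these trends removed MOLM-13 had 2465 with LAA+Olap (from 1972) and 1750 against Olap (from 1208). DESeq2 had 577 there with LAA (from 303), and the fit of all 24 libraries 3124 against LAA (from 2413). In the FPKM fits some calls were added while genes called fell. Calls added beside a rise are not shown to be particular to the members.

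Leaving out 1 library at a time, members called ranged from 0 to 1 with LAA, 3 to 4 with LAA+Olap, 2 to 3 against LAA, 4 to 4 against Olap and 1 to 2 in the interaction in THP-1. In MOLM-13 they ranged from 0 to 2, 1 to 3, 1 to 4, 1 to 2 and 1 to 1 for the same comparisons. They were 0 with Olap in either line, for the line differences of LAA and Olap and between vehicle libraries, and 0 to 1 for the line difference of LAA+Olap. Genes called over the whole table ranged from 114 (without vehicle replicate 2) to 209 with LAA and from 3476 to 4114 with LAA+Olap in THP-1, where all libraries gave 243 and 4423. In MOLM-13 they ranged from 113 (without vehicle replicate 2) to 469 (without LAA replicate 2) with LAA and from 1043 (without LAA+Olap replicate 2; 1176 without replicate 3 and 1179 without vehicle replicate 1) to 1578 with LAA+Olap, where all libraries gave 303 and 1972. Also in MOLM-13, LAA+Olap against LAA gave 1029 (without LAA+Olap replicate 2), 1388 and 1589 (without LAA replicates 3 and 1), 1392 (without LAA+Olap replicate 3) and up to 3168 (without LAA replicate 2), in place of 2413. LAA+Olap against Olap gave 624 and 632 without LAA+Olap replicates 2 and 3, in place of 1208. The interaction ranged from 206 (without LAA+Olap replicate 2) to 496 (without LAA replicate 2) in MOLM-13, in place of 329, and from 797 (without LAA replicate 3) to 1478 in THP-1, in place of 1237. The line difference for LAA+Olap fell to 211 without vehicle replicate 1 of either line, in place of 364, and that between vehicle libraries to 477 without THP-1 vehicle replicate 1, in place of 765. Without the filter on low counts, 124 genes were called with Olap in THP-1 and 194 in MOLM-13, in place of 44 and 1.

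Samples with the same replicate number did not deviate together (correlations -0.08 to 0.04 in THP-1 and -0.09 to 0.12 in MOLM-13, 18 pairs each). These values do not show whether such samples were set up together. With the replicate block, members called were 1 for the THP-1 interaction, where BAK1 had an edgeR adjusted p of 0.0502, and 1 with LAA in MOLM-13, where BAK1 had 0.0494. The block called 454 genes between the vehicle libraries of the lines in place of 765. Depth limits BCL2A1, at no more than 27 counts in a library.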
